A study of Rattus norvegicus with 30 samples.

Results

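Rats whose kidneys went through ischemia and reperfusion on both sides (IRI) gave urine from which exosomal small RNA was sequenced, and the data described here compare the injury state of these rats (days 1 and 2) with their recovery state (days 7 and 14). The IRI rats, numbered 1, 2 and 13, were adult male Sprague Dawley rats in which both renal pedicles were clamped and then released, and the sham rats 3, 6 and 9 had the same operation without the clamp. The same 3 IRI rats were sampled on every day, which gave 12 of the 30 libraries of the study, 6 from the injury state and 6 from the recovery state. No urine from before the operation is among the samples used here. The miRNAs described are the 61 that the tables of all 4 days list, out of 120 listed on at least 1 of these days. Each library was scaled to 1000000 over these 61 miRNAs, each rat's 2 days of a state were averaged, and the states were compared within rats, as injury minus recovery. Levels are therefore counts per 1000000 shared miRNA reads, written as CPM. A lower share cannot be told apart from a larger amount of other miRNAs, and fewer vesicles of an origin cannot be told apart from less of a miRNA per vesicle.

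Exosomes are small vesicles that cells release, and those in urine come largely from the cells that line the nephron and the urinary tract, so their miRNAs can be followed in the same animal over time. A miRNA guides an Argonaute protein to messenger RNAs that pair with its seed, bases 2 to 8 from the 5′ end, and so lowers their output. After ischemia the renal tubule passes through cell death and shedding and then through repair, with fibrosis where repair is incomplete.

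The seeds show how the miRNAs with the clearest state differences relate to each other. Of the 61 miRNAs, 51 matched a mature sequence in RefSeq (GRCr8) by name. They carried 36 different seeds, and 7 seeds were shared by 2 or more of them. miR-351-5p, which was lower in injury in all 3 rats, has the same seed as miR-125a-5p and miR-125b-5p. miR-3473 and miR-23b-3p, the other miRNAs that passed the test, have seeds found in no other matched member. In these sequences the capitals mark the seed.
miR-351-5p: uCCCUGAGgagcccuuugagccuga
miR-125a-5p: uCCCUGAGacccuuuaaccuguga
miR-125b-5p: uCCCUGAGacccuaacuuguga
miR-3473: uCUAGGGCuggagagauggcua
miR-23b-3p: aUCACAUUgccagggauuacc
In GRCr8 the mature miR-351-5p lies at chrX:137725157-137725181 on the minus strand, miR-3473 at chr13:42051730-42051751 on the plus strand and miR-23b-3p at chr17:1819405-1819425 on the minus strand.

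Depth differed between the states and bears on every rare miRNA. The 6 injury libraries held 1080 to 48701 reads over the shared miRNAs, and the 6 recovery libraries held 421 to 1127. A value of 0 in a single library allows up to 3 reads, which is 61.6 to 2778 CPM in injury libraries and 2662 to 7126 CPM in recovery libraries. Such limits, and all intervals given here, cover counting error only. The shallowest injury library, rat 2 at day 2 with 1080 reads, lay within the recovery range. Lane moved with the state in part, since rat 1 was run in lane 2 on all 4 days, rat 2 in lane 2 except for day 14 in lane 3, and rat 13 in lane 4 in injury and lane 5 in recovery. The part of depth in the differences was not tested.

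Of the 61 miRNAs, 3 differed between injury and recovery in IRI rats at an adjusted p under 0.05 (4.92% of those tested; limma on log2(rat mean + 500), rat as block). miR-23b-3p was higher in injury (1 miRNA, 1.64%), and miR-351-5p and miR-3473 were lower (2 miRNAs, 3.28%). miR-351-5p was listed on days 7 and 14 through its IRI values alone. The listing thus took part in its contrast of the states, and its call is a description. At an unadjusted p under 0.05 there were 22 miRNAs (36.1%), 10 higher (16.4%) and 12 lower (19.7%) in injury. All 3 rats moved the same way for 34 miRNAs (55.7%), 17 upward in injury (27.9%) and 17 downward (27.9%). The 3 rat means of the states did not overlap for 24 (39.3%), with injury above recovery for 10 (16.4%) and below it for 14 (23%). All 6 injury libraries lay on one side of all 6 recovery libraries for 4 miRNAs (6.56%). The count rested on single rats, days and libraries. limma called 0 miRNAs without rat 1 and 0 without rat 2, with 14 and 16 at an unadjusted p under 0.05, and 6 without rat 13. It called 0 without day 1 and 0 without day 7 (12 and 18 unadjusted), 11 without day 2 and 1 without day 14. Without the shallow library of rat 2 at day 2 it called 19 miRNAs, 8 higher and 11 lower in injury, and these held all 3 of the calls. In the lane 2 libraries alone, which leave out rat 13 and rat 2 at day 14, the differences were 2.37 for miR-23b-3p, -2.64 for miR-3473 and -2.75 for miR-351-5p, and none was called there (adjusted p = 0.246 for each). With 3 rats an exact sign-flip test of a single miRNA cannot go below p = 0.25, so the adjusted p values rest on limma's shared estimate of the spread.

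miR-351-5p, a rodent miRNA of the X-linked cluster that also encodes miR-322 and miR-503, was lower in the injury state. At day 1 it stood at 407, 2979 and 40.7 CPM in rats 1, 2 and 13, and at day 2 at 1610, 1852 and 640. At day 7 it stood at 17583, 19002 and 4796 CPM in the same rats, and at day 14 at 1775, 12579 and 7174. Every rat was lower in injury, although rat 2 at day 1 and rat 2 at day 2 were above rat 1 at day 14, so the libraries of the states overlapped. The level averaged 1255 ± 1059 CPM in injury and 10485 ± 4952 CPM in recovery (SD, n = 3 rats each). In reads this is 62 of 108042 in injury and 38 of 4588 in recovery. The difference was -2.73 on the log2 scale (SE 0.26, adjusted p = 0.0202), and each rat gave -2.75, -2.48 and -2.95. The adjusted p was 0.0780 without rat 1, 0.127 without rat 2, 0.0550 without day 1 and 0.133 without day 7, while the difference stayed between -3.35 and -1.91 in all 19 alternatives run. At days 7 and 14 this miRNA was at 0 in every sham library. A 0 there allows up to 3 reads, which is 1703 to 14354 CPM, so absence in sham rats is not shown. Its place in the tables of those days, which needed a value above 0 in 3 of 6 libraries, came from the IRI rats alone. Its 6 recovery values in IRI rats thus had to be above 0 for it to be among the 61. The listing therefore took part in the contrast of the states, and the p values of this miRNA are given as a description.

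The reads of miR-351-5p were even in every library. The 15 of the 24 libraries of both groups in which it was above 0 had 2 to 32 reads, never an odd number, while 46.6% of the 1311 values above 0 over the 61 miRNAs were odd. The same held for 6 further miRNAs, miR-125b-5p, miR-181a-5p, miR-181b-5p, miR-196b-5p, miR-24-3p and miR-30c-5p. RefSeq places miR-181a-5p, miR-24-3p and miR-30c-5p at 2 loci, and miR-351-5p, miR-125b-5p, miR-181b-5p and miR-196b-5p at 1. It also places let-7a-5p, let-7c-5p, let-7f-5p, miR-29b-3p and miR-92a-3p at 2 loci, and these had 5, 14, 9, 14 and 14 odd values. The 17 values of miR-29b-3p above 0 were all multiples of 3. How the counting treated reads that fit several loci is not given in the sources used here, and whether each such read was counted 2 times was not tested. If it was, miR-351-5p stands on 31 reads in injury and 19 in recovery. With the values of the 7 miRNAs divided by 2, an alternative added after the data were seen, miR-351-5p differed by -2.39 (adjusted p = 0.0252) and the same 3 miRNAs passed.

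Neither of the other members of its seed group passed the test. miR-125a-5p, a relative of the lin-4 miRNA of worms that is widely expressed in mammalian tissues, averaged 14983 ± 9983 CPM in injury and 30533 ± 3532 CPM in recovery. It was lower in injury in all 3 rats, by 1.33, 0.36 and 1.92 on the log2 scale in rats 1, 2 and 13, and the fitted difference of -1.20 (SE 0.40) had an adjusted p of 0.112. In rat 2 the day 2 library read 37037 CPM, above its recovery libraries at 35629 and 31447. miR-125b-5p had a difference of 0.22 (SE 0.36, adjusted p = 0.670). The 3 miRNAs with this seed together made 1.91 ± 1.04% of the shared reads in injury and 4.37 ± 0.85% in recovery. This sum includes miR-351-5p itself. The median difference of the 3 was -1.20, which is the value of miR-125a-5p, against 0.03 over all 61 miRNAs. In sham rats the median of the group was 1.44. With members in both directions, these values describe the group and show no shared change.

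**Figure D1:**
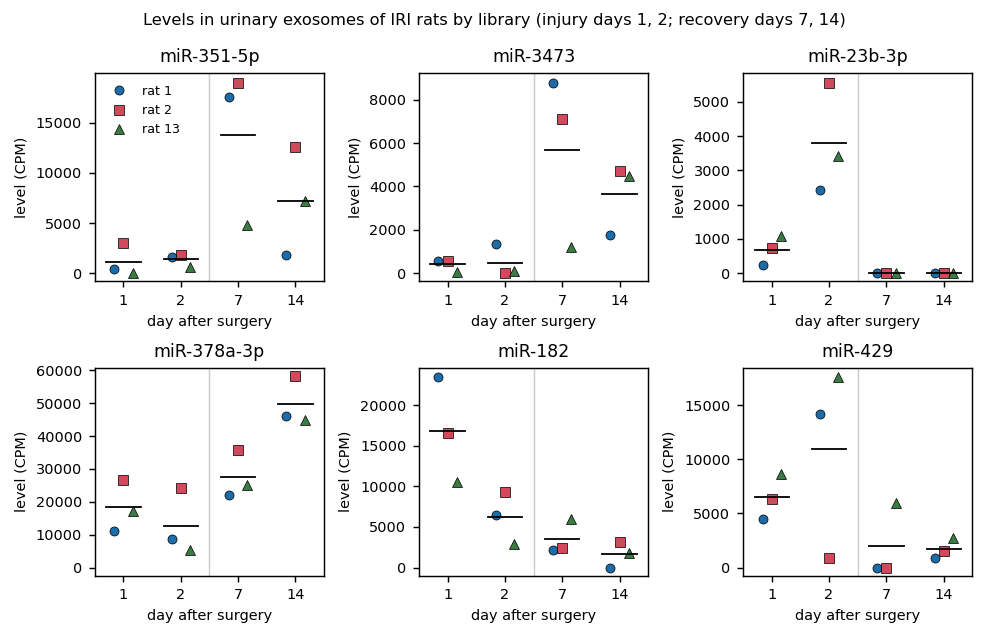
Level of 6 miRNAs in each IRI library (CPM over the shared miRNAs, linear axis) at days 1, 2, 7 and 14, with a symbol for each rat and a bar for the mean of the 3 rats. miR-23b-3p is at 0 in all 6 recovery libraries, while miR-351-5p averages 1255 CPM in injury and 10485 CPM in recovery.

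miR-3473, a small RNA annotated in rodents, was also lower in injury. Its levels in rats 1, 2 and 13 were 582, 558 and 61.5 CPM at day 1 and 1341, 0 and 106 at day 2. They were 8791, 7126 and 1199 CPM at day 7 and 1775, 4716 and 4484 at day 14. Rat 1 at day 2 was the only injury library above the lowest recovery library, rat 13 at day 7. The state means were 441 ± 461 CPM in injury and 4682 ± 1625 CPM in recovery (SD, n = 3 rats each), from 35 and 18 reads. The log2 difference was -2.51 (SE 0.32, adjusted p = 0.0244), and the threshold was passed in 11 of 19 alternatives. The adjusted p was 0.0780 without rat 1, 0.127 without rat 2, 0.0968 without day 1, 0.127 without day 7 and 0.0714 without day 14.

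miR-23b-3p, encoded in a cluster with miR-27b and miR-24, was found in every injury library and in no recovery library of the IRI rats. Day 1 gave 232, 744 and 1088 CPM in rats 1, 2 and 13, and day 2 gave 2414, 5555 and 3412. All 6 libraries of days 7 and 14 were at 0. The states did not overlap, and each rat was higher at day 2 than at day 1. The mean was 2241 ± 913 CPM in injury and 0 in recovery, from 116 of 108042 reads and 0 of 4588 reads. With the libraries of each state pooled, injury stood at 1074 CPM and the 0 reads of recovery allow up to 654 CPM (3 reads). The pooled injury level was 1.64-fold this limit, which leaves out the counting error of the injury reads. Exact 95% intervals were 887 to 1288 CPM in injury and up to 804 CPM in recovery. Pooling weighs the deep libraries most and leaves out the pairing by rat. Rats 1, 2 and 13 held 8, 8 and 53 reads of it at day 1 and 9, 6 and 32 at day 2. The pooled ratio is thus not a bound for each rat. Taken per library, the limits of the recovery libraries (2662 to 7126 CPM) lie above 4 of the 6 injury values. Most single libraries therefore do not set the states apart. The fitted difference of 2.40 (SE 0.32, adjusted p = 0.0244) depends on the constant and ran between 1.06 and 5.43 over 18 alternatives, of which 9 passed the threshold. It lost the call without rat 1 (adjusted p = 0.0780), rat 2 (0.127), day 1 (0.0550), day 2 (0.0718), day 7 (0.127) or day 14 (0.0714). Its cluster partner miR-27b-3p had a difference of -0.09 (SE 0.55) and miR-24-3p one of -0.20 (SE 0.37), and the sign of miR-24-3p turned to 0.035 when libraries were recentred on their median.

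The miR-200 family, which keeps cells epithelial by holding down the transcription factors Zeb1 and Zeb2, had higher values in the injury state, though no member passed after adjustment. All 5 members were measured. miR-429, miR-200b-3p, miR-200c-3p and miR-200a-3p were higher in injury in all 3 rats (4 of 5, against 27.9% of all 61 miRNAs), with an unadjusted p under 0.05 for each (16.4% of all 61 were higher at that level). The family made 7.13 ± 3.63% of the shared reads in injury and 3.03 ± 0.83% in recovery, with a median difference of 1.12 in IRI rats and -0.11 in sham rats.

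Among them miR-429 had the largest difference. Its injury libraries read 4475, 6329 and 8641 CPM at day 1 and 14216, 926 and 17592 at day 2 in rats 1, 2 and 13, and its recovery libraries read 0, 0 and 5996 at day 7 and 887, 1572 and 2690 at day 14. The shallow library of rat 2 at day 2 was the lowest of the injury libraries and lay inside the recovery range. The mean was 8697 ± 4778 CPM in injury and 1857 ± 2159 in recovery, and the log2 difference was 2.19 (SE 0.48, adjusted p = 0.0586). For miR-200b-3p the means were 11796 ± 7225 and 5125 ± 3338 CPM in injury and recovery, and for miR-200c-3p they were 10269 ± 6960 and 4002 ± 3355 (differences 1.12 and 1.27, adjusted p = 0.0586 for both). The day 2 library of rat 2 was again the lowest injury library for both, at 1852 and 926 CPM. miR-200a-3p, the most abundant member, averaged 31926 ± 15108 CPM in injury and 14286 ± 2175 in recovery (difference 1.05, adjusted p = 0.0944). Its injury libraries ran between 11624 and 60881 CPM and its recovery libraries between 9434 and 18834. The remaining member, miR-141-3p, had 926 to 17435 CPM in injury and 0 to 9866 in recovery, and rat 2 went the other way (difference 0.57, SE 0.72). miR-429, miR-200b-3p and miR-200c-3p were past the threshold without rat 2 at day 2, the library that was lowest for each. Over the 19 alternatives run, miR-429 passed in 5, miR-200b-3p in 1 and miR-200c-3p in 2.

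Other miRNAs that were higher in injury in all 3 rats included those of the miR-183 cluster, known from sensory organs and secretory epithelium. miR-182 read 23423, 16569 and 10551 CPM at day 1 and 6438, 9259 and 2879 at day 2 in rats 1, 2 and 13, and 2198, 2376 and 5996 at day 7 and 0, 3145 and 1794 at day 14. It was highest at day 1 in each rat and in rat 13 its day 2 value was below its day 7 value. The log2 difference was 2.01 (SE 0.56, adjusted p = 0.0888), from means of 11520 ± 4282 CPM in injury and 2585 ± 1406 in recovery. miR-183-5p differed by 0.83 (SE 0.36, adjusted p = 0.185).

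miR-26b-5p was the other miRNA whose 6 injury libraries all lay above the 6 recovery libraries, and such a gap in this direction was seen for 2 of 61 miRNAs (3.28%). It read between 12816 and 22526 CPM in injury and between 3145 and 9502 CPM in recovery. The means were 15857 ± 1789 and 7231 ± 881 CPM in injury and recovery, with a difference of 1.08 (SE 0.27, adjusted p = 0.0719). Sham rats gave 0.86 over the same days, and the IRI minus sham difference for this miRNA was 0.22 (adjusted p = 0.765). miR-29a-3p, known to repress collagen genes, averaged 3199 ± 298 CPM in injury and 1438 ± 208 in recovery (difference 0.94, adjusted p = 0.0797), and its second measured relative, miR-29b-3p, differed by -0.54. The values of miR-29a-3p stand on 390 reads in injury and 6 in recovery, where 2 libraries were at 0. Pooled, those 6 reads have an exact 95% interval of 480 to 2844 CPM, so the SD of 208 does not cover counting error. miR-148a-3p, a repressor of the DNA methyltransferase Dnmt1, averaged 19755 ± 16246 CPM in injury and 3310 ± 1600 in recovery. Rats 1 and 13 carried most of its difference of 1.92 (SE 0.64, adjusted p = 0.112), with 39900 and 20875 CPM at day 1, while rat 2 read 3630 and 1852 CPM in injury, against 2376 and 1572 CPM in recovery.

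Several miRNAs of moderate abundance were lower in injury in all 3 rats. miR-378a-3p, which lies in an intron of Ppargc1b and is known for its part in mitochondrial metabolism in mice, read 11014, 26716 and 17262 CPM at day 1 and 8584, 24074 and 5225 at day 2 in rats 1, 2 and 13. It read 21978, 35629 and 25180 CPM at day 7 and 46140, 58177 and 44843 at day 14. All 3 rats were higher at day 14 than at day 7, and the states overlapped only through rat 2 in injury. The means were 15479 ± 8618 CPM in injury and 38658 ± 7156 in recovery (log2 difference -1.41, SE 0.31, adjusted p = 0.0586). Its measured relative miR-378b had a difference of -0.96 (adjusted p = 0.0944), which turned to 0.032 without day 14.

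miR-28-3p, from an intron of the Lpp gene, had 0 to 537 CPM in injury and 887 to 2690 in recovery, so its values did not overlap. However, 8 reads make up the recovery values (difference -1.71, SE 0.34, adjusted p = 0.0586). A single read in a recovery library is worth 887 to 2375 CPM, so any read there lies above every injury value. The 0 of rat 2 at day 2 allows up to 2778 CPM, so this gap cannot be read as a gap in level. let-7b-5p was the other miRNA with all injury libraries below all recovery libraries (2 of 61, 3.28%). miR-328a-3p averaged 1858 ± 1784 CPM in injury and 7122 ± 1352 in recovery (difference -1.94, adjusted p = 0.0586). For miR-140-3p, best known from cartilage and encoded within the Wwp2 gene, the means were 782 ± 409 CPM in injury and 2611 ± 1525 in recovery (difference -1.22, adjusted p = 0.0586). These stood on 131 and 80 reads in injury and 32 and 10 reads in recovery.

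**Figure D2:**
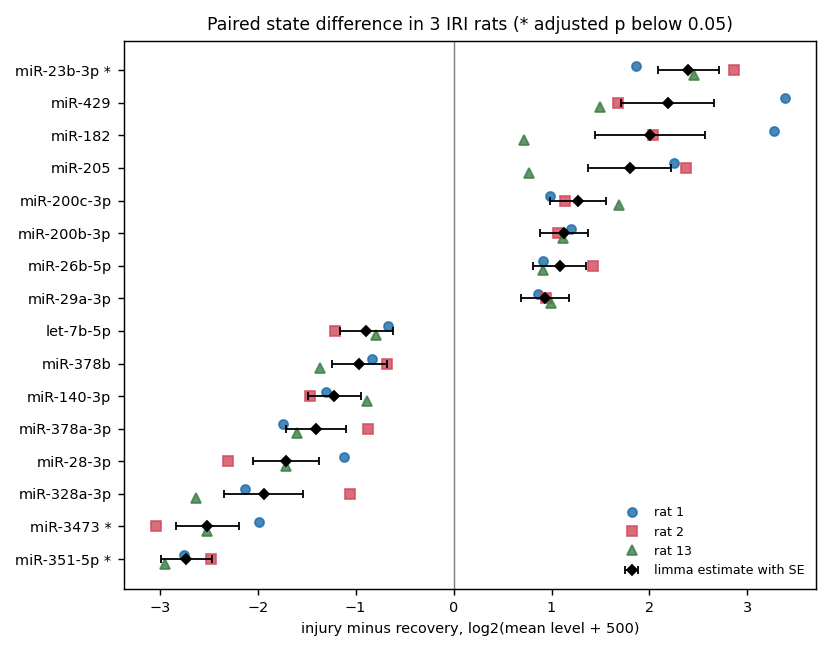
Injury minus recovery difference on the log2(mean level + 500) scale for the 8 miRNAs in each direction with the smallest p among those that moved the same way in all 3 IRI rats. Coloured symbols are the 3 rats, diamonds the limma estimate with its SE, and the difference of miR-351-5p runs only between -2.95 and -2.48 over the rats, while that of miR-182 runs between 0.72 and 3.27.

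The let-7 family, the most abundant miRNAs of these libraries and known repressors of Lin28, Hmga2 and Ras genes, had no member that passed the test. The 8 measured members together made 51.3 ± 5.56% of the shared reads in injury and 56.2 ± 2.92% in recovery. Of the 8, let-7f-5p and let-7d-5p were higher in injury in all 3 rats and let-7b-5p and let-7c-5p were lower. let-7b-5p read between 41666 and 76448 CPM in injury and between 77938 and 134872 CPM in recovery, with means of 59786 ± 11355 and 110353 ± 10982 (difference -0.89, SE 0.27, adjusted p = 0.0964). let-7c-5p had means of 151439 ± 35226 CPM in injury and 218058 ± 37126 in recovery (difference -0.54, adjusted p = 0.203). let-7f-5p, by contrast, had 172803 ± 14743 CPM in injury and 118970 ± 21359 in recovery (difference 0.55, adjusted p = 0.223), and let-7a-5p had 103538 ± 24438 and 79975 ± 12379 (difference 0.36, adjusted p = 0.504).

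These 4 miRNAs share the seed GAGGUAG and differ at few bases, so how reads were assigned among them is uncertain. In the sequences the capitals mark bases that differ from let-7a-5p, with positions counted from 1 at the 5′ end: A17G and A19G in let-7b-5p, A19G in let-7c-5p and G12A in let-7f-5p.
let-7a-5p: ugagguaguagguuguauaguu
let-7b-5p: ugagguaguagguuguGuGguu
let-7c-5p: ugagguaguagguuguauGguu
let-7f-5p: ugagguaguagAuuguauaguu
let-7b-5p and let-7c-5p, which carry A19G, were lower in injury in the mean, and let-7a-5p and let-7f-5p, which do not, were higher. The split did not hold over the family, since let-7e-5p, which differs from let-7a-5p by U9G, had a difference of -0.40 and was lower in 2 of 3 rats. The choice of these 4 miRNAs was made after the values were seen, and the share is given as a description without a test. let-7b-5p and let-7c-5p as a share of the 4 were 41.7%, 37.2% and 39.3% at day 1 in rats 1, 2 and 13, and 55.0%, 38.9% and 47.4% at day 2. At day 7 the shares were 64.9%, 59.0% and 43.6%, and at day 14 they were 69.5%, 66.5% and 67.3%. In each rat day 14 was the highest, and at day 7 rat 13 still lay within the injury range. At least 200 reads stand behind each share, and the exact 95% interval was 38.8% to 48.6% for rat 13 at day 7 and 63.6% to 70.9% for the same rat at day 14. Sham rats ran between 37.8% and 66.8% on days 1 and 2 and between 43.4% and 66.1% on days 7 and 14, so these ranges overlapped widely.

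**Figure D3:**
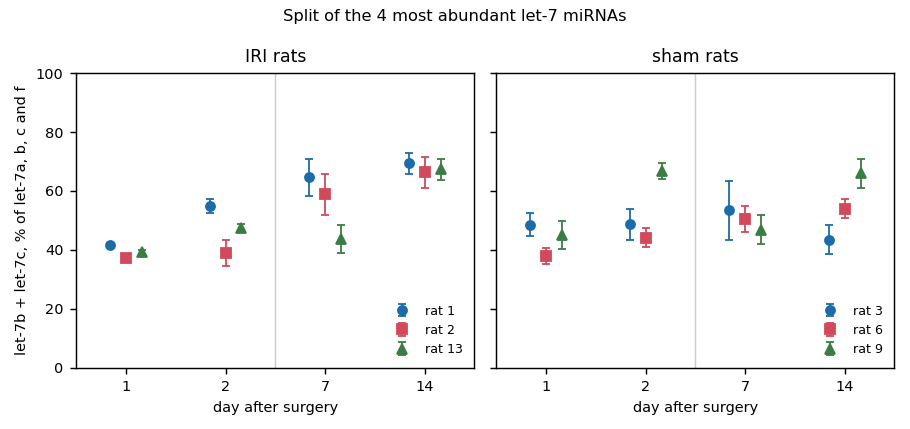
let-7b-5p and let-7c-5p as a percent of the reads of let-7a-5p, b, c and f in each library, with exact 95% intervals, at days 1, 2, 7 and 14 in IRI rats (left) and sham rats (right). IRI libraries lie between 37.2% and 55.0% in injury and between 43.6% and 69.5% in recovery, and all 3 are above 66% only at day 14.

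The remaining abundant miRNAs did not pass the test. miR-21-5p, induced in many injured organs, averaged 59234 ± 20424 CPM in injury and 50751 ± 7330 in recovery (difference 0.17, adjusted p = 0.670), and the sign of its difference turned to -0.073 without rat 13. miR-16-5p averaged 36074 ± 5459 CPM in injury and 26097 ± 2762 in recovery, higher in all 3 rats (difference 0.45, adjusted p = 0.250). miR-26a-5p, miR-30a-5p and miR-10a-5p had differences of 0.39, 0.35 and -0.23, and that of miR-10a-5p turned to 0.0050 with recentring. Recentring libraries on their median added 0.23 to the differences, and the call of 3 miRNAs then became 10, 6 higher and 4 lower in injury. The 4 measured members of the miR-30 family 5p arms, abundant in kidney epithelium, were all higher in the mean, 2 of them in all 3 rats, with a median difference of 0.49.

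Markers of other sources were few among the shared miRNAs. Of the 8 blood cell markers 1 was measured, miR-16-5p, which many tissues express. The red cell miRNAs miR-486, miR-451-5p and miR-144-3p and the leukocyte miRNAs miR-142-3p, miR-223-3p and miR-150-5p were not among the 61. Of the 4 tubule-enriched miRNAs, miR-192-5p was measured and made 1.17 ± 0.63% of the shared reads in injury and 1.01 ± 0.22% in recovery (difference 0.11, SE 0.30). No mesenchymal marker of 5 and no muscle marker of 3 was among the 61. Both stratified epithelium markers were measured, at 1.16 ± 1.16% of the shared reads in injury and 0.307 ± 0.288% in recovery. miR-205 read 0, 466 and 5255 CPM at day 1 and 3756, 3703 and 1066 at day 2, and it was at 0 in both recovery libraries of rats 1 and 2 and at 2398 and 897 in those of rat 13 (difference 1.80, SE 0.43, adjusted p = 0.0656). Its recovery values stand on 3 reads, and the zeros of rats 1 and 2 there allow up to 2662 to 7126 CPM. miR-203a-3p reached 37522 CPM in rat 13 at day 1, against 0 to 10989 in every other IRI library, and differed by 1.82 (SE 1.37). The part of cells of this origin in the other differences was not tested.

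Sham rats were measured on the same days without the clamp, though at other depths. Their libraries held 685 to 2052 shared reads on days 1 and 2 and 209 to 1762 on days 7 and 14. In all these were 8371 and 4942 reads, against 108042 in injury and 4588 in recovery in IRI rats. Depth thus fell far more between the states in IRI rats. The part of depth in the contrast of IRI and sham rats was not tested. No miRNA passed in sham rats (0 called by limma, 5 or 8.2% at an unadjusted p under 0.05), and 4 miRNAs were higher (6.56%) and 6 lower (9.84%) on days 1 and 2 in all 3 sham rats. The difference between IRI and sham rats was fitted as an interaction, and 2 miRNAs were past its threshold (3.28%), miR-351-5p and miR-23b-3p. Each was at 0 in 1 of the groups in all 6 libraries of days 7 and 14 and was listed on those days through the other group alone. The listing thus took part in the contrast of the groups, and the values of both are given as a description with no p. miR-351-5p had a difference of -2.73 in IRI rats and 1.44 in sham rats, which gives -4.17 (SE 0.69). In sham rats it had 2924 CPM in rat 6 at day 1, 2920 in rat 3 and 1195 in rat 6 at day 2, and 0 in the other 3 libraries of those days and in all 6 of days 7 and 14. The values above 0 are 6, 2 and 2 reads, and the zeros of days 7 and 14 allow up to 1703 to 14354 CPM. The sham difference of 1.44 thus stands on few reads. miR-23b-3p had a difference of 2.40 in IRI rats and -0.74 in sham rats, which gives 3.139 (SE 0.64). Sham rats had 1460 to 3430 CPM of it on days 1 and 2 and 1135 to 7752 on days 7 and 14. With all IRI libraries of days 7 and 14 at 0, it could be listed there only with all 6 sham libraries above 0, and these held 1 to 5 reads of it each. limma called 0 miRNAs without IRI rat 2 and 0 without sham rat 3 (7 and 9 at an unadjusted p under 0.05), and 0 without day 2 and 0 without day 7 (9 each). Without IRI rat 13, sham rat 9 or day 14 the 1 call left was miR-351-5p.

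miR-3473 had a difference of -0.81 in sham rats, and its IRI minus sham difference of -1.70 had an adjusted p of 0.168. For miR-378a-3p sham rats had 59659 ± 26340 CPM on days 1 and 2 and 64832 ± 9393 on days 7 and 14, both above the IRI means (IRI minus sham difference -1.21, adjusted p = 0.289). The 4 miR-200 members that were higher in all 3 IRI rats had IRI minus sham differences of 0.33 to 1.96 with adjusted p of 0.218 to 0.752, so their difference is not shown to differ from that of sham rats.

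**Figure D4:**
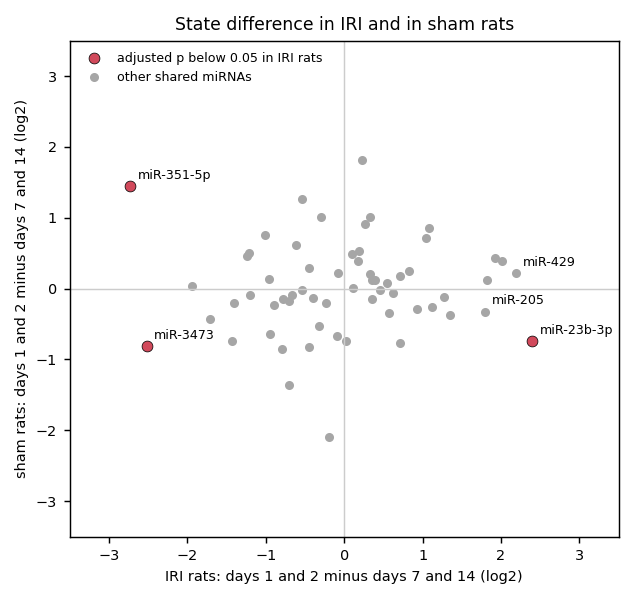
Difference of days 1 and 2 minus days 7 and 14 on the log2 scale for each of the 61 miRNAs in IRI rats (horizontal) and sham rats (vertical), with red points for the 3 miRNAs past the threshold in IRI rats. The point of miR-351-5p lies at -2.73 on the IRI axis and 1.44 on the sham axis, and that of miR-23b-3p at 2.40 and -0.74.

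Day 3, which belongs to neither state, was read over the 56 miRNAs that all 5 days list. Of the 16 miRNAs with the smallest p, 13 are among these. Their day 3 mean over the rats lay nearer the injury mean for 10. It lay nearer the recovery mean for 3 (miR-3473, miR-26b-5p and miR-378b). Among the other named miRNAs read at day 3, only let-7f-5p and miR-24-3p lay nearer recovery. Lying nearer injury is thus not a trait of the 16, and the share over all 56 miRNAs was not computed. The day 3 means do not keep the pairing by rat, and single rats differed. miR-200b-3p read 0, 6002 and 33724 CPM at day 3 in rats 1, 2 and 13. Its injury means were 10327, 5530 and 19863 CPM in these rats, and its recovery means were 4229, 2392 and 8897. miR-351-5p stood at 2950, 2401 and 478 CPM at day 3 in rats 1, 2 and 13, and miR-23b-3p at 2950, 2401 and 239. Both were closer to their injury means of 1268 and 2273 than to their recovery means of 10612 and 0 on this scale. The 2950 and 2401 are 2 reads each in libraries of 678 and 833 reads.

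Libraries of the same state were closer to each other than libraries of different states in rat 2 and, by little, in rat 13, but not throughout in rat 1. The median absolute log2 difference over the 61 miRNAs between day 1 and day 2 of a rat was 0.90, 0.79 and 0.75 in rats 1, 2 and 13, and between day 7 and day 14 it was 0.86, 0.58 and 0.83. Between an injury and a recovery day it ran between 0.83 and 1.05 in rat 1, 0.96 and 1.16 in rat 2, and 0.85 and 1.02 in rat 13. The part of counting error in these differences was not tested. Read on its own, rat 2 at day 2 lay on the injury side of its recovery mean for 14 of the 16 miRNAs with the smallest p, and the exceptions were miR-200b-3p and miR-378b. This library took part in choosing them, so the count is a description.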

How the data were processed

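Urinary exosome small RNA of 3 IRI and 3 sham rats was extracted by the authors with a kit for exosomal RNA from urine. The authors built the libraries with the QIASeq miRNA library kit and sequenced them. Reads were trimmed by the authors with Cutadapt, aligned to the rat genome (version 5) with Bowtie and the miRDeep2 mapper in CAP-miRseq and counted with HTSeq. Tool versions, and the treatment of reads that fit several loci, are not given in the sources used here. The deposited signal values are counts that the authors scaled to about the CPM scale and rounded, in 1 table per day, of miRNAs above 0 in at least 3 of 6 libraries. The tables also hold the authors' edgeR results, which were not used.

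The 61 miRNAs listed on days 1, 2, 7 and 14 were taken and each library was scaled to 1000000 over them. Scaling was thus the same over tables the authors scaled separately. Reads were recovered from the worth of 1 read in each library, of which values up to 20 reads were whole multiples within 0.1 (largest offset 0.02). Intervals are exact binomial at 95%, and a count of 0 allows 3 reads.

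Rat means of each state were compared on log2(mean + 500) with limma 3.58.1 in R 4.3.3, with the rat as block, because the labels give the same animal on every day. p values were adjusted by Benjamini-Hochberg over the 61 miRNAs with a threshold of 0.05, two-sided. The IRI minus sham difference was fitted as an interaction. A fold change on this scale understates the change of rare miRNAs. The fits were also run on simulated libraries of the same depths, in which some of the 61 miRNAs changed by a known fold. That run was required only to give the right sign of a large change. It held no rat effect and no listing filter, so it does not measure how often the calls made here would be false.

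Named miRNAs are those past the threshold in either comparison, the 8 higher and the 8 lower in injury with the smallest p among those that moved alike in all 3 IRI rats, the 10 most abundant, those the paper names, and members of the lists of families and markers. The members and the lists were chosen with earlier results of these data known. Alternatives were other constants, a filter, the values as deposited, recentring, the mean of log2 values, an intensity trend, no block, and leaving out each rat, day or lane, and the library of rat 2 at day 2. Halving the miRNAs with even reads was added after the data were seen. Sequences are from RefSeq (GRCr8).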

Additional observations from a re-analysis of the deposited data

Results flagged for a closer look

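2 miRNAs were past the threshold of the interaction between state and surgery. Both were listed on days 7 and 14 through 1 group alone, miR-351-5p through the IRI rats and miR-23b-3p through the sham rats, while the other group was at 0 in all 6 libraries. A table listed only miRNAs above 0 in 3 of 6 libraries, so the listing took part in the contrast and the values are a description with no p. For miR-351-5p the IRI minus sham difference of injury minus recovery was -4.17, from -2.73 in IRI rats and 1.44 in sham rats. All 3 IRI rats were lower on days 1 and 2, while 2 of 3 sham rats were higher and sham rat 9 was at 0 on every day. A 0 in a sham library of days 7 and 14 allows up to 1703 to 14354 CPM. Over 19 alternatives the difference lay between -6.72 and -2.52. For miR-23b-3p the difference was 3.139, from 2.40 in IRI rats and -0.74 in sham rats. Over 20 alternatives it lay between 1.61 and 6.26. Its size depends on the constant, since all 6 recovery libraries of the IRI rats were at 0.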

How the results depend on the processing

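The number of miRNAs past the threshold in IRI rats, 3 as fitted, was 2 with a constant of 50, 1 with a constant of 2000, 4 with a constant of 0.5 read, 2 after a filter on miRNAs above 0 in 8 of 12 libraries, 8 with the values as deposited, 10 with recentring and 3 with the mean of log2 values, with an intensity trend and with the even miRNAs halved. Without the replicate block it was 4. It was 0 to 6 with each rat left out, 0 without day 1, 11 without day 2, 0 without day 7, 1 without day 14, 0 in lane 2 alone (7 at an unadjusted p under 0.05, with differences of 2.37 for miR-23b-3p, -2.64 for miR-3473 and -2.75 for miR-351-5p) and 19 without rat 2 at day 2. The IRI minus sham difference, passed by 2 miRNAs, was passed by 1 with constants of 50 or 2000, with the filter or with the mean of log2 values, by 0 with a constant of 0.5 read, by 2 without the replicate block and by 0 to 2 with each rat left out. It was passed by 0 without day 2 or day 7 and by 1 without day 14.

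Of 29 named miRNAs 24 kept the sign of their difference in every alternative, and 13 of 549 values turned. miR-378b turned to 0.032 without day 14. miR-21-5p turned to -0.073 without rat 13 and -0.17 without day 2. miR-10a-5p turned to 0.0050 with recentring, 0.23 without rat 1 (range -0.60 to 0.23 with each rat left out) and 0.10 without day 1. miR-24-3p turned to 0.035 with recentring, 0.35 with the mean of log2 values, 0.14 without rat 2 (range -0.55 to 0.14), 0.56 without day 7, 0.31 without day 14 and 0.88 in lane 2, and miR-141-3p to -0.14 without rat 1 (range -0.14 to 1.52). The cause was not tested. The filter left no value for miR-23b-3p or miR-205 in IRI rats. Count-based tests with edgeR and DESeq2 were planned and not run, because no library had more than 19 low values from which reads could be checked, against the 100 needed. A recovery library of 421 to 1127 reads cannot tell a level under 2662 to 7126 CPM from 0.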

Other observations

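A few miRNAs were listed on both days of 1 state and on neither day of the other, and so are not among the 61. In injury there were 9 of them. miR-9a-5p, best known from the nervous system, stood at 93820 of the deposited values in rat 13 at day 2, against 0 to 5957 in the other 5 injury libraries of IRI rats and 0 to 8428 in sham libraries of days 1 and 2. miR-142-3p, a leukocyte miRNA, was at 3357 in rat 1 and 3054 in rat 13 at day 2, while rat 2 was at 0 there. miR-96-5p, the third member of the miR-183 cluster, averaged 565.5 in IRI and 391.8 in sham libraries of these days. On the recovery days the single such miRNA was miR-27a-5p, with values up to 7943 in rat 2 at day 7 and a mean of 2434 in IRI and 752.3 in sham libraries. Tables of single days were scaled separately, and a miRNA that a table does not list has no value there, so no difference between the states was computed for these.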
